A study of Mus musculus with 9 samples.

Results

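The genes of 7 solute carrier families that move amino acids and related molecules across membranes were examined in mouse podocytes, the cells whose foot processes cover the filtering capillaries of the kidney. Members were all rows of the expression table whose symbol begins with Slc1a, Slc3a, Slc6a, Slc7a, Slc36a, Slc38a or Slc43a followed by a number. This gave 62 genes out of 23309 symbols (23813 rows), and each member stood on 1 row. Of the 62, 19 reached 1 FPKM in at least 3 of the 9 libraries and entered the tests. FPKM is a fragment count divided by transcript length and by library size, so levels of different genes can be set side by side. One of the 19, Slc7a6os, matched by name only: it lies next to Slc7a6 on the opposite strand and does not encode a transporter, so 18 transporter family genes were tested.

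Total RNA came from GFP-positive podocytes of wildtype mice aged 7 to 8 weeks that carry the mTmG reporter and a Cre transgene, in which recombined cells carry GFP. The libraries fell into 3 groups of 3: mice given PBS, mice 9 days after injection of an agent the labels abbreviate ADR, and mice 14 days after it. The reporter and Cre are thus common to all groups. Nothing in the labels ties the replicates to separate mice, and p-values therefore measure only the spread between these libraries.

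Between 8629 and 10474 symbols reached 1 FPKM per library. Relative depth, estimated from the step size of low values with PBS replicate 2 set to 1, was 0.239 to 0.569 on day 14 and 0.786 to 1.09 elsewhere. All 14 podocyte markers checked were above 0 in all 9 libraries. Their summed level was 3164 FPKM in ADR_D14 replicate 1 and 10061 to 16184 FPKM in the others. Of 24 proximal tubule markers, 23 exceeded 4 times the highest PBS library in ADR_D14 replicate 1. So did 19 of 21 endothelial, 18 of 20 distal tubule and 11 of 21 leukocyte markers. In ADR_D9 replicate 3, 20 of 21 endothelial, 13 of 20 distal tubule and 13 of 21 leukocyte markers did so. Results that rest on these 2 libraries, called mixed for the markers they held, are given with and without them. The 7 red cell markers found summed to 548 FPKM in ADR_D9 replicate 1, 248 in ADR_D9 replicate 3 and 66.5 in ADR_D14 replicate 1. In the other libraries they summed to 0.350 to 5.45 FPKM. ADR_D9 replicate 1, where 2 of these 7 exceeded 4 times the highest PBS library, is not counted as mixed. In bulk RNA, fewer cells of a type and less RNA per cell cannot be told apart.

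Amino acid transporters differ in what drives them and where they sit. SLC38 and SLC1 carriers and most of SLC6 use the sodium gradient, some SLC36 carriers use protons, and SLC43 carriers use no ion gradient. Many SLC7 proteins are light chains that reach the membrane only when joined to a heavy chain of the SLC3 family and then exchange one amino acid for another. In the kidney the families are best known from the proximal tubule, which recovers filtered amino acids. Many of the genes are induced by ATF4, the factor that accumulates when amino acids run short, and their substrates feed mTORC1, the kinase complex that senses amino acids at the lysosome.

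Among the 19 tested genes, the highest with PBS was Slc3a2, which encodes the heavy chain CD98hc (4F2hc), also a partner of integrins. It was at 196, 206 and 238 FPKM in the PBS libraries, 212, 215 and 227 FPKM at day 9 and 204, 177 and 129 FPKM at day 14. These values lay close together up to day 9, and on day 14 the libraries at 177 and 129 FPKM were the lowest of the 9. Next came Slc6a6, which encodes the taurine transporter, at 148, 264 and 87.2 FPKM in the PBS libraries, 66.1, 83.5 and 141 FPKM at day 9 and 32.3, 107 and 157 FPKM at day 14. Its groups overlapped widely, and its libraries spread more widely within each group than the group means differed. The third was Slc38a2, which encodes SNAT2, the system A carrier for small neutral amino acids. Together these 3 genes made up 70.1% to 78.2% of the summed FPKM of all members with PBS, and 34.4% in ADR_D14 replicate 1.

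**Figure D1:**
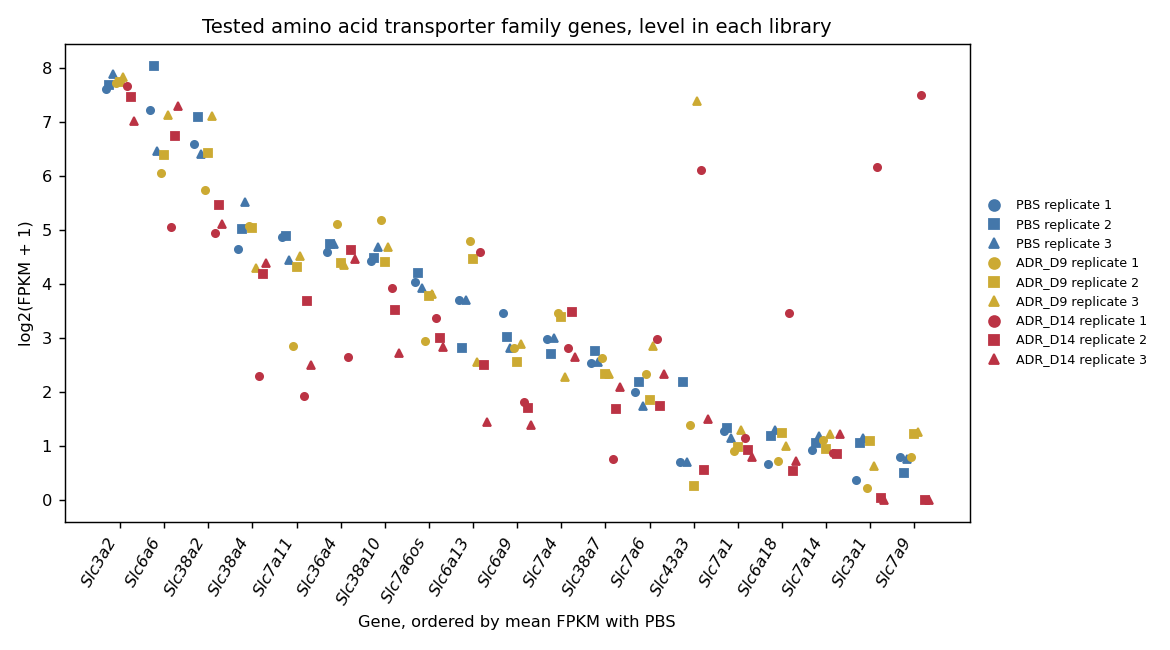
Level of each tested member in each library, as log2(FPKM + 1), with genes ordered by their mean with PBS; colours mark the groups and symbols the replicate number. Slc3a2 lies near the top in all libraries, while Slc43a3, Slc3a1 and Slc7a9 are high in 1 or 2 libraries only.

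The heavy chain was far more abundant than its light chains. Slc3a2 pairs with the products of Slc7a5, Slc7a6, Slc7a7, Slc7a8, Slc7a10 and Slc7a11, and on the FPKM scale, which is per length, it stood at 5.12 to 20.1 times their sum in the 9 libraries. Slc7a11, which encodes xCT, the light chain that imports cystine in exchange for glutamate and so supplies glutathione synthesis, made up 85.4% to 87.9% of that sum with PBS. By day 9 the share stood at 59.2%, 85.1% and 62.0%, and by day 14 at 7.08%, 82.5% and 53.2%. The second light chain was Slc7a6 (y+LAT2, an exchanger of cationic for neutral amino acids), at 3.02, 3.59 and 2.37 FPKM in the PBS libraries, 4.08, 2.62 and 6.23 FPKM at day 9 and 6.89, 2.38 and 4.04 FPKM at day 14. Slc7a5, which encodes LAT1, the leucine exchanger of many growing cells, was at 0.698, 0.841 and 0.0486 FPKM in the PBS libraries, 0, 0.390 and 1.97 FPKM at day 9 and 0.528, 0.0685 and 0.0555 FPKM at day 14. It reached 1 FPKM in ADR_D9 replicate 3 alone. Slc7a10 did not exceed 0.159 FPKM anywhere. Slc7a7 and Slc7a8, light chains of the basolateral tubule membrane, stayed under 1 FPKM except in the 2 mixed libraries.

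**Figure D2:**
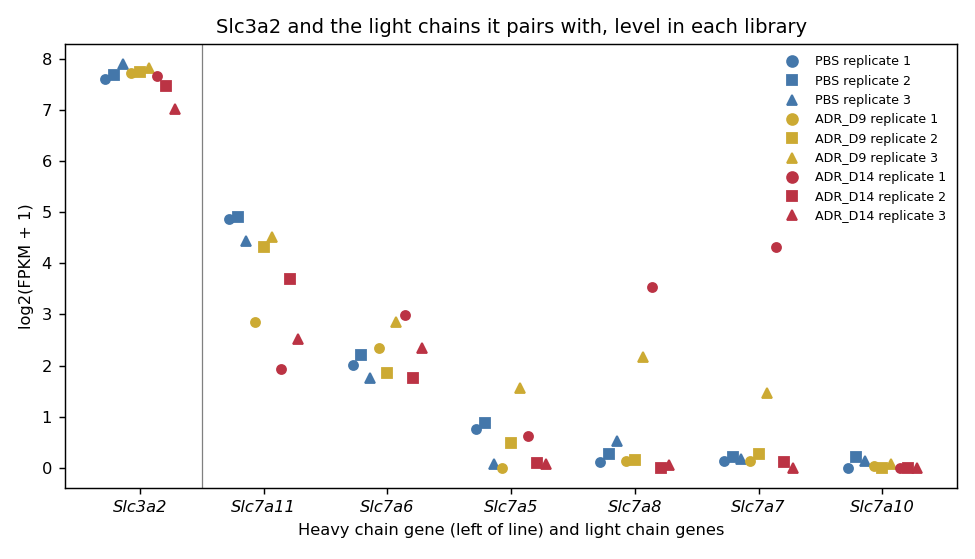
Level of the heavy chain gene Slc3a2 and of the 6 light chain genes it pairs with in each library, as log2(FPKM + 1). Slc7a11 is the highest light chain in all libraries except ADR_D14 replicate 1, where Slc7a7 (18.9 FPKM), Slc7a8 (10.6 FPKM) and Slc7a6 (6.89 FPKM) lie above it.

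Of the 11 SLC38 members, 4 were tested. Besides Slc38a2 these were Slc38a4 (SNAT4, the other system A carrier found here), Slc38a10 (a widely expressed member) and Slc38a7 (SNAT7, a lysosomal exporter of glutamine and asparagine). Their means in the PBS libraries were 33.6 ± 10.6, 22.4 ± 2.17 and 5.19 ± 0.535 FPKM (SD, n = 3), with the lysosomal carrier the lowest. Slc38a1, the system A carrier of neurons and other tissues, did not exceed 0.198 FPKM. Slc38a9, a lysosomal arginine sensor for mTORC1, was detected in all libraries but never reached 1 FPKM (0.267 to 0.925). The SLC36 family was carried by Slc36a4, a high-affinity transporter of proline and tryptophan, with 23.2, 25.8 and 25.8 FPKM in the PBS libraries, 33.9, 20.02 and 19.4 FPKM at day 9 and 5.29, 23.9 and 21.3 FPKM at day 14. ADR_D14 replicate 1 was the lowest library by a wide margin. Slc36a1, which encodes the lysosomal proton-coupled carrier PAT1, did not exceed 0.398 FPKM in the 9 libraries.

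Promoter sequences are shown for Slc7a11 and Slc38a2, since both genes fell on day 14 (values stand with that comparison) and both are textbook targets of amino acid shortage. Of the 19 tested members, 15 had a window of 300 bases (250 before to 50 after a start) in RefSeq, GRCm38.p6. Matches to 4 motifs were searched on both strands: TGATGNAA, the core of the C/EBP-ATF element through which ATF4 acts, TGACNNNGC, the core of the antioxidant response element, CACGTG, the E-box read by TFEB and TFE3, and GNGTGGGNG, a GC-rich motif of the kind bound by EGR factors and WT1. Capitals mark every match. The Slc7a11 window is chr3:50443564-50443863 on the minus strand and the Slc38a2 window chr15:96699679-96699978 on the minus strand.
Slc7a11: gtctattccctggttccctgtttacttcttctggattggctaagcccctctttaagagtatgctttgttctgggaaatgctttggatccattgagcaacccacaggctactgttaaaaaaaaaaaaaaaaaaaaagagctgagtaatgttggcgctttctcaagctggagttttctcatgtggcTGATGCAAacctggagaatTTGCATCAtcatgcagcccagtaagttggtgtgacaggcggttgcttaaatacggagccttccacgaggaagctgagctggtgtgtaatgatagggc
Slc38a2: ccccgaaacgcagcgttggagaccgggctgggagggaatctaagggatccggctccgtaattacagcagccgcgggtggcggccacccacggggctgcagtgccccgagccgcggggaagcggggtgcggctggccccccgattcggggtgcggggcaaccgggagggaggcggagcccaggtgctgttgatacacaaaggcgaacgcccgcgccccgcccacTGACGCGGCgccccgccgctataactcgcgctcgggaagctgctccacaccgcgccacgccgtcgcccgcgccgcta
The Slc7a11 window held the C/EBP-ATF core at −66 from the start (TGATGCAA) and again at −47 on the other strand (TTGCATCA). It was the only one of the 24 windows of tested members with that motif, which 3.97% of all 32817 windows held. The Slc38a2 window held 1 antioxidant response element core at −27 (TGACGCGGC). That motif was in 7 of the 24 windows of tested members and in 12.4% of all windows. CACGTG was in 2 of the 24 windows, those of Slc38a7 and Slc7a14 (7.15% of all windows), and GNGTGGGNG in 4 of 24 (14.3% of all windows). A match describes the letters only. The absence of a match covers these 300 bases only, since sequence beyond them, introns included, was not searched.

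In the SLC6 family, which is known for neurotransmitter carriers, 4 of 19 members were tested. These were Slc6a6, Slc6a13 (GAT2, a carrier of GABA, taurine and betaine found in kidney and liver), Slc6a9 (GlyT1, a glycine carrier) and Slc6a18, an apical tubule carrier. Means with PBS were 10.1 ± 3.45 FPKM for Slc6a13 and 7.75 ± 2.04 for Slc6a9 (SD, n = 3). Slc6a8, the creatine carrier, stayed under 1 FPKM except in ADR_D14 replicate 1 (3.13). Cationic amino acid transport was represented by Slc7a1 (CAT1, the common arginine and lysine carrier), with 1.43, 1.54 and 1.22 FPKM in the PBS libraries, 0.876, 0.971 and 1.45 FPKM at day 9 and 1.23, 0.899 and 0.745 FPKM at day 14, and with Slc7a2 at most 0.203 FPKM in any library. The related Slc7a4 and Slc7a14, whose transport roles are less clear, were at 6.50 ± 0.836 and 1.10 ± 0.189 FPKM (SD, n = 3). By library, Slc7a4 was at 6.94, 5.54 and 7.03 FPKM in the PBS libraries, 10.1, 9.54 and 3.86 FPKM at day 9 and 6.06, 10.2 and 5.29 FPKM at day 14. It overlapped between all groups. No SLC1 member was tested: Slc1a5 (ASCT2, a glutamine exchanger) was at 0.452, 0.695 and 0.101 FPKM with PBS, and Slc1a4 (ASCT1) did not exceed 0.103 FPKM anywhere.

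The first comparison asked how transporter levels 9 days after ADR differed from PBS. None of the 19 tested members passed limma (adjusted p under 0.05), and 0 of them had an unadjusted p under 0.05. Over all 9788 genes tested 0 passed either, which is 0.0%, with 304 genes at an unadjusted p under 0.05. Log2 changes here are differences of mean log2(FPKM + 1) minus the same difference for the median tested gene. For the median gene it was 0.04 for day 9 minus PBS, −0.15 for day 14 minus PBS and −0.22 for day 14 minus day 9. Every limma p-value tests the change before this subtraction. With all 9 libraries the tested change on day 14 was lower than the printed one by 0.15 against PBS and 0.22 against day 9. The median over the tested members was −0.10 on day 9, with 13 of 19 below the median gene.

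Slc7a11 had a log2 change of −0.88 ± 0.54 (SE) on day 9, and its lowest library, ADR_D9 replicate 1 (6.23 FPKM), lay far below the lowest PBS library (20.8 FPKM). The other day 9 libraries were at 19.0 and 22.1 FPKM. ADR_D9 replicate 1 also held the highest sum of red cell markers, and their part in its values was not tested. Slc6a6 was at −0.74 ± 0.62 and Slc6a9 at −0.38 ± 0.26. Slc38a2 stood at −0.31 ± 0.36, and at 0.05 without ADR_D9 replicate 1. Slc7a6os was the only tested member whose day 9 libraries all lay below all PBS libraries (6.77, 12.8 and 13.1 against 15.6, 17.5 and 14.3 FPKM, −0.58 ± 0.29). Over all genes 6.63% lay below in this way.

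The second comparison set day 14 against PBS. The carrier genes that fell were Slc38a2, Slc7a11 and Slc6a9, which is 3 of 19 tested members, and 0 rose. Of all tested genes 17.1% passed, 10.7% lower (1051 genes) and 6.32% higher (619 genes), so the share of members was near the background. After median-of-ratios scaling the split over all genes was 764 lower and 863 higher, while 2 members fell, Slc38a2 and Slc6a9. Slc7a11 was then at −1.87 (adjusted p = 0.0505 by limma). The median over the tested members was −0.42, with 12 of 19 below the median gene. With Slc7a6os left out it was −0.31, with 11 of 18 below. Over all 19 it was −0.53 without the 2 mixed libraries. It was −0.32 with the trend on transcript length and GC content removed and −0.22 with a term for Y-linked transcripts.

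Slc38a2, whose promoter is printed above, was at 96.6, 136 and 84.9 FPKM in the PBS libraries, 53.00, 85.9 and 137 FPKM at day 9 and 30.2, 43.3 and 33.9 FPKM at day 14. All day 14 libraries lay below all PBS and all day 9 libraries. Its log2 change against PBS was −1.38 ± 0.36 (SE, adjusted p = 0.0249 by limma). The call was lost without PBS replicate 1 (−1.44, adjusted p = 0.0517), replicate 2 (−1.20, 0.111) or replicate 3 (−1.49, 0.065). Without the 2 mixed libraries it was −1.25 (adjusted p = 0.0223 by limma). In the fits without PBS replicates 1, 2 and 3, 1121, 0 and 150 of all 9788 genes passed, against 1670 with all libraries.

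Slc7a11 was at 28.3, 28.9 and 20.8 FPKM in the PBS libraries, 6.23, 18.98 and 22.1 FPKM at day 9 and 2.81, 11.9 and 4.70 FPKM at day 14. The day 14 libraries were all below the PBS libraries, but ADR_D14 replicate 2 lay above ADR_D9 replicate 1, so the day 9 and day 14 groups overlapped. The log2 change against PBS was −1.88 ± 0.54 (SE, adjusted p = 0.0364 by limma), the largest decrease among the tested members. With 1 library left out it passed in 3 of 9 fits, against 6 of 9 for Slc38a2 and 8 of 9 for Slc6a9. The adjusted p by limma was 0.0848, 0.129 and 0.0871 without PBS replicates 1, 2 and 3, 0.056 without ADR_D9 replicate 2, 0.0716 without ADR_D14 replicate 1 and 0.0708 without ADR_D14 replicate 3, with log2 changes no nearer to 0 than −1.47. Without the 2 mixed libraries it was −1.47 (adjusted p = 0.0576 by limma).

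Slc6a9 was at 10.02, 7.13 and 6.09 FPKM in the PBS libraries, 6.03, 4.94 and 6.40 FPKM at day 9 and 2.51, 2.27 and 1.62 FPKM at day 14. The day 14 libraries were tightly grouped and lay below those of both other groups. Its log2 change against PBS was −1.32 ± 0.26 (SE, adjusted p = 0.0128 by limma), and −1.39 (adjusted p = 0.0144) without the 2 mixed libraries. The call was lost without PBS replicate 2 (−1.38, adjusted p = 0.0706 by limma).

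A further 4 members lay below all PBS libraries on day 14 without passing. Slc38a10 was at 20.7, 21.5 and 24.8 FPKM in the PBS libraries, 35.5, 20.5 and 24.9 FPKM at day 9 and 14.4, 10.5 and 5.63 FPKM at day 14 (−0.999 ± 0.34, adjusted p = 0.0504 by limma). Slc38a7 was at 4.82, 5.80 and 4.93 FPKM in the PBS libraries, 5.18, 4.07 and 4.10 FPKM at day 9 and 0.709, 2.23 and 3.26 FPKM at day 14 (−0.96 ± 0.34, adjusted p = 0.0557 by limma). Slc38a4 was at 24.2, 31.4 and 45.1 FPKM in the PBS libraries, 32.9, 32.01 and 18.9 FPKM at day 9 and 3.94, 17.3 and 19.95 FPKM at day 14 (−1.29 ± 0.54, adjusted p = 0.0978 by limma). Thus all tested SLC38 genes lay below PBS without overlap, though only Slc38a2 of them passed. Without the 2 mixed libraries Slc38a4 was at −0.61 and Slc38a7 at −0.57. The last was Slc7a6os, at 9.36, 7.04 and 6.21 FPKM on day 14 (−0.84 ± 0.29, adjusted p = 0.0505 by limma). In all, 7 of 19 tested members lay below without overlap and 0 above, while 23.8% of all tested genes lay below and 15.6% above.

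Slc3a2, the heavy chain, did not pass: it was at −0.20 ± 0.22 (SE, adjusted p = 0.297 by limma), and ADR_D14 replicate 1 (204 FPKM) lay within the PBS range. Slc36a4 (−0.62) and Slc6a6 (−0.72) did not pass. For Slc36a4 the value rested on ADR_D14 replicate 1, at 5.29 FPKM, and without that library it was 0.032. That library also had the lowest depth and the lowest summed podocyte markers. The part of either in the low value was not tested. Slc6a13 was at 12.05, 6.10 and 12.1 FPKM in the PBS libraries, 26.9, 21.1 and 4.94 FPKM at day 9 and 23.4, 4.66 and 1.73 FPKM at day 14 (−0.42 ± 0.83). Its value in ADR_D14 replicate 1 stood above those of the other day 14 libraries, beside the proximal tubule markers. Without the 2 mixed libraries Slc6a13 was at −1.27 and passed (adjusted p = 0.0461 by limma). With ADR_D14 replicate 1 alone left out it was also at −1.27 but did not pass (adjusted p = 0.17 by limma). Slc6a13 passed in 0 of the 9 fits that left out 1 library. In the fit without the 2 mixed libraries 6 of 19 members passed, all lower: Slc38a2, Slc6a9, Slc38a10, Slc6a13, Slc7a6os and Slc7a9. Slc7a9 entered the tests only through the libraries left out there and was under 1 FPKM in all PBS libraries, so its call is not taken as a decrease. Over all genes 22.1% passed in that fit (1371 genes lower and 794 higher), which is also more than with all 9 libraries.

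**Figure D3:**
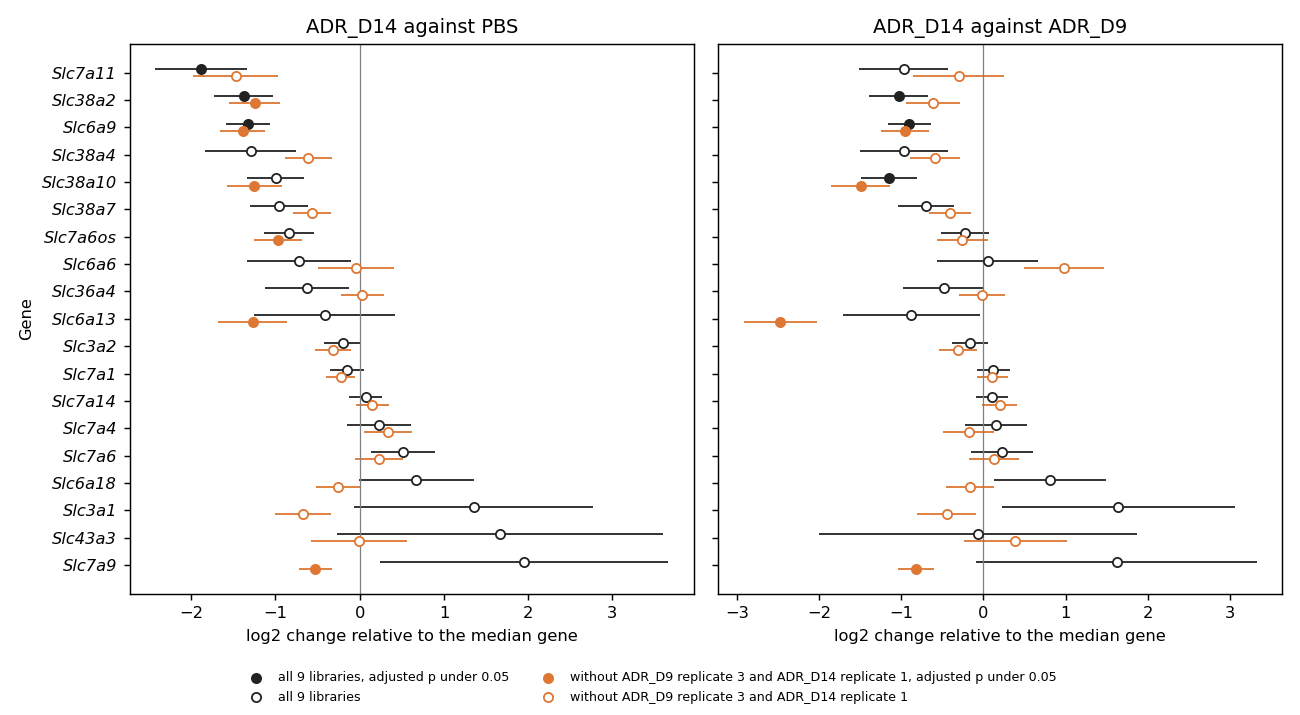
Log2 change of each tested member on day 14 against PBS (left) and against day 9 (right), relative to the median gene. Bars show 1 standard error. Filled points have an adjusted p under 0.05 by limma, which tests the change before the median gene is subtracted. Black points use all 9 libraries and orange points leave out ADR_D9 replicate 3 and ADR_D14 replicate 1; Slc7a9 and Slc3a1 change sign between them against PBS.

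Calls on day 14 against PBS were lost when transcript length and GC content together, or Y-linked transcripts, were adjusted for. The longest annotated transcript of the 4 members that passed on day 14 in either comparison had a median of 5347 bases. The median was 3750 over the tested members and 3178 over all genes tested. The 4 lengths were 6116 bases for Slc38a2, 9223 for Slc7a11, 3479 for Slc6a9 and 4578 for Slc38a10. When each library's dependence on length and GC share was taken out, 0 of 19 members passed limma against PBS (4 at an unadjusted p under 0.05), and over all genes 5.98% passed, 2.94% lower and 3.04% higher. Slc38a2 was then at −1.18 (adjusted p = 0.0687 by limma), Slc7a11 at −1.75 (0.0777) and Slc6a9 at −0.90 (0.0555). Slc38a10 was at −0.44 (0.364). Before this step these 4 genes were at −1.38, −1.88, −1.32 and −0.999, in the same order. With a term for Y-linked transcripts 0 members passed limma (4 at an unadjusted p under 0.05), as did 0 of all genes (2282 at an unadjusted p under 0.05). The log2 changes were then −1.60 for Slc38a2, −1.94 for Slc7a11 and −1.225 for Slc6a9. Without PBS replicate 2, 0 of all genes passed limma either, with 2349 at an unadjusted p under 0.05. The part of these in the calls was not tested.

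The third comparison tested day 14 against day 9 directly. Again 3 of 19 tested members fell and 0 rose. Of all tested genes 15.7% passed, 9.98% lower (977 genes) and 5.71% higher (559 genes). After median-of-ratios scaling the split over all genes was 646 lower and 825 higher, and 2 members fell, Slc38a10 and Slc6a9. Slc38a2 was then at −0.99 (adjusted p = 0.0824 by limma). Before that scaling Slc38a2 was at −1.03 ± 0.36 (SE, adjusted p = 0.0463), Slc6a9 at −0.91 ± 0.26 (0.0265) and Slc38a10 at −1.16 ± 0.34 (0.0303, all by limma). All 3 day 14 libraries of each lay under the lowest day 9 library. Slc38a7 and Slc3a2 lay below without overlap as well and did not pass (−0.70 and −0.16). In all, 5 of 19 tested members lay below, against 24.6% of all tested genes. Slc7a11 did not pass (−0.97 ± 0.54, adjusted p = 0.157 by limma).

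These calls were often lost when 1 library was left out, and the count over all genes moved as well. Of 9788 genes, 1536 passed with all libraries. The count was 497, 625 and 381 without ADR_D9 replicates 1, 2 and 3, and 729 without PBS replicate 2. Among the 9 fits that left out 1 library, the highest was 2124, without ADR_D14 replicate 1. Slc38a2 passed in only 1 of the 9 fits that left out 1 library, the one without ADR_D9 replicate 1 (−1.35, adjusted p = 0.0421 by limma), and was at −0.75 (0.132) without ADR_D9 replicate 3. Without both mixed libraries it was at −0.62 (0.137), and 4 members passed, all lower: Slc38a10, Slc6a9, Slc6a13 and Slc7a9. The call of Slc7a9 is again not taken as a decrease, and over all genes 13.1% passed, 8.46% lower. Slc6a13 passed in 0 of the 9 fits that left out 1 library. Slc38a10 passed in 4 of 9 fits. It was lost without PBS replicate 2 (−1.16, 0.0613), ADR_D9 replicate 1 (−0.92, 0.0984), replicate 2 (−1.30, 0.0561) or replicate 3 (−1.25, 0.0829), or ADR_D14 replicate 2 (−1.24, 0.0551). Slc6a9 also passed in 4 of 9. It was lost without PBS replicate 2 (−0.91, 0.0575), ADR_D9 replicate 1 (−0.85, 0.0824), replicate 2 (−0.97, 0.0596) or replicate 3 (−0.90, 0.083), or ADR_D14 replicate 3 (−0.78, 0.0522). With the length and GC dependence taken out, 0 members passed limma (2 at an unadjusted p under 0.05), and over all genes 4.5% passed, 1.66% lower and 2.84% higher.

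Of the 43 untested members, 30 never reached 1 FPKM and 2 of these, Slc38a8 and Slc6a5, were listed at 0 throughout. The other 13 reached 1 FPKM, all 13 of them only in ADR_D9 replicate 3, ADR_D14 replicate 1 or both. Over all 62 members, 14 stood at no less than 1 FPKM and above 4 times their top PBS value in ADR_D14 replicate 1, and 6 in ADR_D9 replicate 3. In each of the other 4 libraries taken after ADR, 0 did.

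Several apical carriers of the proximal tubule were high in ADR_D14 replicate 1 alone. Others were not: Slc36a2 was listed at 0 there (at most 0.375 FPKM with PBS), and Slc7a13 was at 0.0754 FPKM, within its PBS range. Slc7a9 (b0,+AT) and Slc3a1 (rBAT) form the cystine and dibasic amino acid exchanger that is defective in cystinuria. Slc7a9 was at 0.749, 0.418 and 0.709 FPKM in the PBS libraries, 0.739, 1.33 and 1.41 FPKM at day 9 and 181, 0 and 0 FPKM at day 14. It is the 1 tested member that would not have met the level required for testing without the 2 mixed libraries. Slc3a1 was at 0.305, 1.08 and 1.24 FPKM in the PBS libraries, 0.169, 1.14 and 0.551 FPKM at day 9 and 71.3, 0.0360 and 0 FPKM at day 14. For both genes 1 library stood far above the other 8, and the other day 14 libraries were at or near 0, below the PBS libraries. The log2 changes on day 14 against PBS were 1.96 ± 1.71 for Slc7a9 and 1.36 ± 1.42 for Slc3a1 (SE, adjusted p = 0.484 and 0.575 by limma), and −0.53 and −0.67 without ADR_D14 replicate 1. In that library Slc6a19 (B0AT1, the main neutral carrier of the apical membrane) was at 22.1 FPKM, Slc1a1 (the glutamate carrier EAAT3) at 13.4, Slc6a18 at 10.1, and Slc6a20a and Slc6a20b (imino acid carriers) at 5.60 and 5.52. The last pair are close paralogs, so the split of reads between them is uncertain. The 24 proximal tubule markers, which include no member, summed to 6788 FPKM there and to 22.4 to 292 FPKM elsewhere, and their part in these values was not tested.

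High in both mixed libraries were 5 members. Slc43a3, which encodes a purine nucleobase carrier despite its family, was at 0.642, 3.59 and 0.644 FPKM in the PBS libraries, 1.64, 0.196 and 167 FPKM at day 9 and 68.9, 0.473 and 1.84 FPKM at day 14. Its log2 change on day 14 against PBS was 1.67 ± 1.94, and −0.010 without ADR_D14 replicate 1. Slc1a5 was at 10.03 and 11.8 FPKM in ADR_D9 replicate 3 and ADR_D14 replicate 1, and at most 0.695 FPKM elsewhere. Slc7a8 (LAT2) was at 3.52 and 10.6, Slc7a7 (y+LAT1) at 1.76 and 18.9 and Slc43a2 (LAT4) at 1.11 and 2.24 FPKM. The 21 endothelial markers summed to 4214 and 1261 FPKM in these libraries and to 114 to 705 FPKM in the others. Like that sum, Slc43a3 was higher in ADR_D9 replicate 3, while Slc1a5, Slc7a8, Slc7a7 and Slc43a2 were higher in ADR_D14 replicate 1. In the same order, leukocyte markers summed to 965 and 1395 FPKM and distal tubule markers to 905 and 14042 FPKM. Mesangial and smooth muscle markers summed to 467 and 37.4 FPKM. Their part, and that of the other cell types raised there, was not tested.

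**Figure D4:**
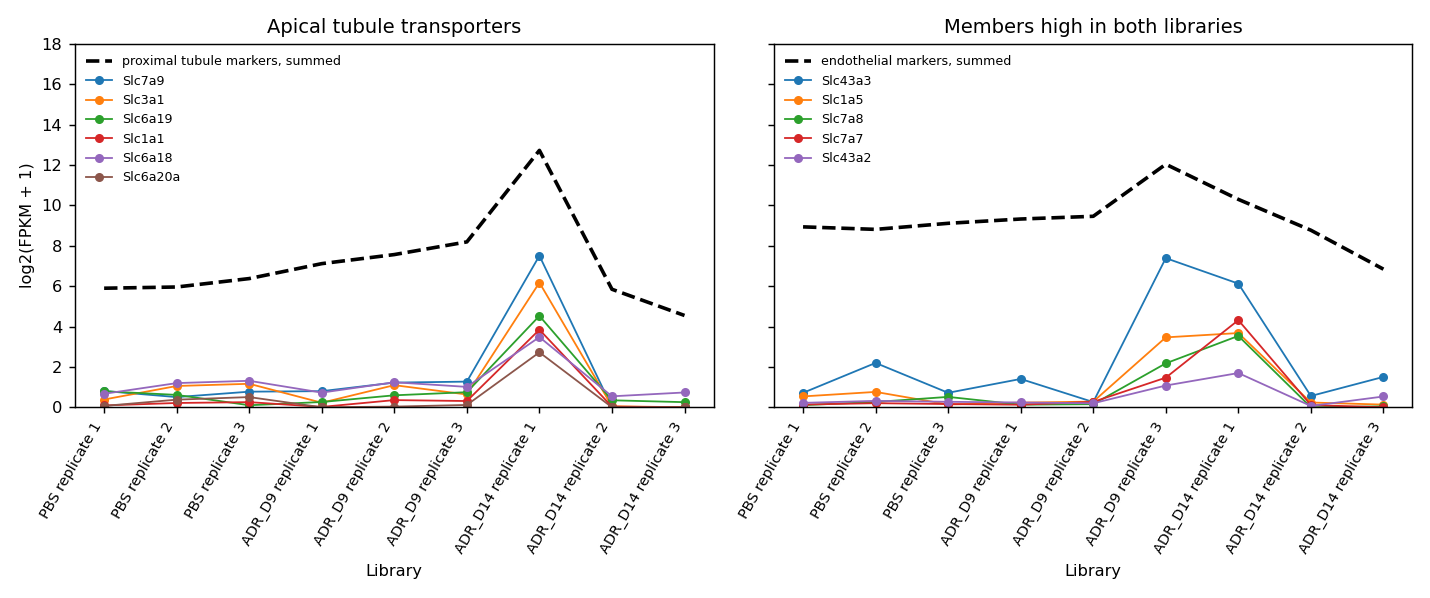
Level of members by library, as log2(FPKM + 1), beside the summed level of marker genes (dashed): 6 apical tubule carriers with proximal tubule markers (left) and 5 members high in 2 libraries with endothelial markers (right). The carriers on the left peak in ADR_D14 replicate 1 and those on the right in ADR_D9 replicate 3 and ADR_D14 replicate 1, as do the marker sums. On the right the marker sum and Slc43a3 are highest in ADR_D9 replicate 3, and Slc1a5, Slc7a8, Slc7a7 and Slc43a2 in ADR_D14 replicate 1.

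Genes that read out or use amino acid supply were described alongside. Of 26 genes of the amino acid response, 21 were tested, and on day 14 against PBS 1 rose and 2 fell (median 0.10, with 12 of 21 above the median gene). These 3 of 21 are near the 17.1% that passed over all tested genes. Atf4 itself fell from 229 ± 28.9 to 97.1 ± 43.9 FPKM (SD, n = 3, log2 change −1.17, adjusted p = 0.0348 by limma), with 67.7, 148 and 75.9 FPKM in the day 14 libraries and 216, 262 and 209 with PBS. Atf5, a related factor that ATF4 induces, fell too (−1.78). Without the 2 mixed libraries neither passed (−0.93 with adjusted p = 0.0662 for Atf4 and −1.47 with 0.0639 for Atf5, by limma), and the median of the list was −0.22. In that fit 2 genes of the list passed as higher, Cebpg (1.57) and Eif4ebp1 (1.36), and 1 as lower, Shmt2, a mitochondrial serine enzyme (−0.61). With 1 library left out Atf4 passed in 3 of 9 fits and Atf5 in 4 of 9. Cebpg, which encodes a dimer partner of ATF4, rose from 7.49, 4.64 and 2.61 to 15.8, 13.8 and 13.6 FPKM (1.61). Ddit3, which encodes the stress factor CHOP, was at 263, 279 and 298 FPKM in the PBS libraries against 9.82, 120.0 and 82.3 FPKM on day 14, without passing (−2.41, adjusted p = 0.0653 by limma). On day 14 against day 9, 1 of 21 passed as higher (Eif4ebp1, a translation repressor under mTORC1 control, 1.35, passing in 3 of 9 fits with 1 library left out) and 0 fell. Eif4ebp1 was at 0.456, 0.302 and 0.257 FPKM at day 9 and 0.937, 2.34 and 2.91 FPKM at day 14. It met the level for testing only through PBS replicate 1 (1.07 FPKM) and ADR_D14 replicates 2 and 3. Its calls, with or without the mixed libraries, are therefore not taken as a rise. Over all tested genes 5.71% rose and 9.98% fell.

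Of 36 genes of amino acid sensing and mTORC1, 30 were tested, and on day 14 against PBS 2 rose and 4 fell (median −0.35). These 6 of 30 are near the 17.1% that passed over all tested genes. The lower ones were Flcn (folliculin, −1.01), Tfe3 (a lysosomal gene factor that folliculin restrains, −1.11), Tsc2 (tuberin, an mTORC1 inhibitor, −1.04) and Mlst8 (an mTORC1 subunit, −1.25). Lamtor5, a subunit of the Ragulator scaffold on the lysosome, rose from 46.5, 33.9 and 38.5 to 187, 80.4 and 83.5 FPKM (1.58), and Rraga, a Rag GTPase gene, rose as well (1.12). With 1 library left out, Flcn and Tfe3 passed in 7 of 9 fits, Lamtor5 in 5, Tsc2 in 3, and Mlst8 and Rraga in 2. Without the 2 mixed libraries the median of the list was −0.12, and 3 genes passed as higher and 4 as lower. Lamtor5 was then at 1.21, and Mlst8 and Rraga did not pass. Over all genes 22.1% passed in that fit. With the length and GC dependence taken out, 0 of 30 passed (median −0.094), against 5.98% of all genes.

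All 20 cytosolic aminoacyl-tRNA synthetase genes, which charge tRNAs with the amino acids imported, were tested. On day 14 against PBS 4 fell and 0 rose (median −0.27): Vars (valine, −1.43), Iars (isoleucine, −1.48), Aars (alanine, −0.84) and Eprs (glutamate and proline, −0.93). Over all tested genes 10.7% fell and 6.32% rose, and with 1 library left out these genes passed in 6 or 7 of 9 fits. Vars was at 6.65, 10.1 and 10.5 FPKM in the PBS libraries against 3.11, 2.50 and 1.55 FPKM on day 14. The same count fell against day 9, where 9.98% of all tested genes fell. With the length and GC dependence taken out, 1 of 20 passed against PBS, Iars (−1.28, adjusted p = 0.0373 by limma). Over all genes 5.98% passed in that fit.

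Of 13 genes of glutathione synthesis and use, the pathway that cystine from Slc7a11 supplies, 12 were tested and 1 fell on day 14 against PBS (median 0.80). The one that fell was Oplah, a recycling enzyme (−1.21). Over all tested genes 10.7% fell and 6.32% rose, so 1 of 12 is near the background. Gss, glutathione synthetase, was at 39.9, 34.4 and 35.2 FPKM in the PBS libraries against 149.7, 49.4 and 81.98 FPKM on day 14 (1.34, adjusted p = 0.0612 by limma), and it rose against day 9 (1.58, adjusted p = 0.0439 by limma). Without the 2 mixed libraries Gss did not pass against day 9 (0.97, adjusted p = 0.109 by limma), and with 1 library left out it passed in 1 of 9 fits. The median of the list against PBS was 0.27 without the mixed pair. Of 17 other transporters and partners, 11 were tested. Bsg, which encodes the monocarboxylate transporter partner basigin, rose from 172, 137 and 155 to 479.7, 294 and 366 FPKM (1.41), and Arl6ip1 fell (−0.66). These 2 of 11 are near the 17.1% that passed over all tested genes. With a term for Y-linked transcripts, or without PBS replicate 2, 0 genes of these 5 lists passed limma against PBS, as stated above for all genes.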

How the data were processed

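RNA of isolated GFP-positive podocytes was measured in 9 libraries, 3 per group. The values are FPKM as the authors deposited them. Bowtie 0.12.7, Cufflinks and mm9 are listed, with no role, in the submitters' processing notes. For annotation, strand use and multi-mapped reads, settings were not given in the sources used here, so paralogs and overlapping genes (Slc7a6 and Slc7a6os) are uncertain. Table columns named control were taken as the PBS libraries, matched by replicate number. Of repeated symbols (260), the most abundant row was used. Genes at 1 FPKM or more in 3 or more libraries (9788) entered limma 3.58.1 (R 4.3.3) on log2(FPKM + 1), with a variance trend, all 9 libraries and group as the only term, two-sided, Benjamini-Hochberg adjusted over all genes. This scale understates changes of low genes. Tests used the values as deposited, without subtraction of the change of the median gene. The procedure was tested on simulated data with a capped spread, larger changes than those of the members that passed, and no mixed libraries. That test does not bear on the calls given here. Lengths are from the longest GENCODE M21 transcript (99.4% of genes tested matched), promoters from RefSeq, both of later builds than mm9. FPKM carries no counts, so no counting interval can be given, and a value listed at 0 can be a failed estimate.

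Members that passed, the 12 most abundant with PBS and a set chosen by role were described by library, except that most untested ones were given by their range or their high libraries. From each pathway list up to 4 genes per comparison with the smallest p were eligible to be named. The members, lists, rules and alternatives were chosen with earlier results of these data known. Alternatives were a pseudocount of 0.1, other filters and scalings, fits to the groups compared alone, replicate number as a block, summed rows, a term for Y-linked transcripts, removal of the length and GC dependence, and omission of the 2 mixed libraries or of each library in turn.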

Additional observations from a re-analysis of the deposited data

Results flagged for a closer look

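Levels differed between the 2 times after ADR, by the direct test of day 14 against day 9, for Slc38a10 (−1.16), Slc38a2 (−1.03) and Slc6a9 (−0.91 on the log2 scale, relative to the median gene). On day 9 against PBS these genes were at 0.19, −0.31 and −0.38, none past limma, and on day 14 against PBS at −0.999, −1.38 and −1.32. Both of these comparisons share the PBS libraries, for which no day is given. The direct difference passed limma for none of the 3 genes with the length and GC dependence taken out or with only the 2 groups in the fit. Over all genes 4.5% and 2.68% passed in those fits. With 1 library left out the direct difference passed in 4 of 9 fits for Slc38a10, 1 of 9 for Slc38a2 and 4 of 9 for Slc6a9. The day 14 libraries had 0.239 to 0.569 of the depth of PBS replicate 2, and the part of depth was not tested.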

How the results depend on the processing

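On day 9 against PBS, 0 members passed under all 21 alternatives. Over all genes at most 2 passed in any of them, the 2 without a filter. On day 14 against PBS the count of 3 became 1 without a filter, 6 with a common column total, 6 without the 2 mixed libraries (Slc7a9, tested only through them, included), and 0 with the term for Y-linked transcripts or with the length and GC trend removed. It ran from 0 to 4 with 1 library left out. Over all genes the count of 1670 of 9788 became 997 of 19046 without a filter and 2088 of 9854 with a common column total. It was 2165 of 9788 without the mixed libraries, 0 with the Y-linked term and 582 of 9732 with the trend removed. With 1 library left out it ran from 0 to 1885 of 9788 genes. On day 14 against day 9 the count of 3 became 1 without a filter or after quantile normalization, and 0 with only the 2 groups compared or with the length and GC trend removed. It ran from 0 to 3 with 1 library left out. Over all genes the count of 1536 of 9788 became 881 of 19046 without a filter and 1212 of 9788 after quantile normalization. It was 262 of 9788 with only the 2 groups compared and 438 of 9732 with the trend removed. With 1 library left out it ran from 381 to 2124 of 9788 genes. The cause was not tested. All calls of members under these alternatives were decreases.

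Slc38a2, Slc7a11, Slc6a9 and Slc38a10 kept a negative change on day 14 in every alternative. Signs reversed only for changes that had not passed with all libraries. On day 9, Slc38a2 ranged from −0.63 to 0.051 with 1 library left out, the latter without ADR_D9 replicate 1. On day 14 against PBS such ranges were −0.998 to 0.032 for Slc36a4, −0.53 to 3.20 for Slc7a9, −0.67 to 2.39 for Slc3a1 and −0.010 to 2.74 for Slc43a3, each reversed without ADR_D14 replicate 1 and equally without both mixed libraries. For Slc6a13 the range was −1.27 to 0.28, the latter without ADR_D14 replicate 3. The Y-linked term gave 0.10 for Slc36a4, −0.56 for Slc43a3 and 0.019 for Slc6a13. Against day 9, Slc3a2 ranged from −0.30 to 0.022, the latter without ADR_D14 replicate 3.

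Whether the replicate numbers pair the samples is not known. Same-numbered libraries of different groups correlated at −0.265 to 0.431 in their deviations from group means, with 1 of 9 pairs over 0.1. In 4 of 9 cases the best correlation was with the same number. The 2 mixed libraries correlated at 0.458 with each other, so these values cannot exclude a pairing. With the replicate number as a block, 3 members passed on day 14 against PBS and 2 against day 9, where Slc38a2 was lost (adjusted p = 0.0561 by limma). The lower depth of the day 14 libraries limits what can be said of members under 1 FPKM.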
